A study of Homo sapiens with 2 samples.

Results

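The transcription factors MITF, OTX2, PAX6, LHX2, SIX3, SIX6, RAX, TFEC and CRX were chosen by name, as genes that specify the eye field, the retinal pigment epithelium and the photoreceptors. All 9 were found in the GENCODE 44 annotation of hg38, among 19970 protein-coding genes on chromosomes 1 to 22 and X. Nucleosome positions had been mapped by MNase-seq, in which micrococcal nuclease cuts the linker DNA and the protected fragments are sequenced. The cells were ARPE-19, an established human line derived from retinal pigment epithelium, labelled as epithelial, in normal culture and in interphase. The labels list 2 batches of this 1 condition, with no treated or control arm, and the deposited list does not tell the batches apart. It holds 2632955 distinct positions on these chromosomes, or 0.904 per kb, each a single base with no height or score. The genes and 20 kb on each side carried 820 of them. The median distance from one position to the next was 549 bp, so a stretch without one is not shown to be free of nucleosomes. No RNA values were used here, so the cell type label could not be checked against marker genes, and which of the 9 genes these cells transcribe is not known here.

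PAX6, RAX, SIX3, SIX6 and LHX2 belong to the eye field, the patch of anterior neural plate from which both eyes grow. PAX6 is a paired and homeodomain factor, RAX a paired-like homeodomain factor, SIX3 and SIX6 are homeodomain factors of the sine oculis family, and LHX2 is a LIM homeodomain factor needed for the optic cup. MITF, a basic helix-loop-helix leucine zipper factor, and OTX2, a homeodomain factor, together drive pigment epithelium genes. TFEC is a close relative of MITF, and CRX is a relative of OTX2 that acts in photoreceptors. MITF is read from several promoters: the upstream A promoter is used broadly, the H promoter lies further down the gene, and the M promoter serves melanocytes. CpG islands, where CpG dinucleotides are frequent, often contain promoters, and developmental regulators tend to lie in long ones.

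The sequences in front of 3 MITF start groups show how unlike these promoters are. Each run is the 200 bases directly before the most upstream start of its group, read 5′ to 3′ from the hg38 reference on the plus strand, with CpG dinucleotides in capitals. They lie at chr3:69739256-69739455 (A), chr3:69866024-69866223 (H) and chr3:69936387-69936586 (M).
MITF A promoter: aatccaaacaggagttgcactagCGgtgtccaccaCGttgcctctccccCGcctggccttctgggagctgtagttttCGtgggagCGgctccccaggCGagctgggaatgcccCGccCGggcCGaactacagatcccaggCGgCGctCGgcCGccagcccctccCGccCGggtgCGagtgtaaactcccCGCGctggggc
MITF H promoter: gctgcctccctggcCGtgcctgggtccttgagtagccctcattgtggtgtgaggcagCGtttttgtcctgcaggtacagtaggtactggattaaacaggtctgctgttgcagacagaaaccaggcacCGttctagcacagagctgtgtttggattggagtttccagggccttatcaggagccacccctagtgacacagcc
MITF M promoter: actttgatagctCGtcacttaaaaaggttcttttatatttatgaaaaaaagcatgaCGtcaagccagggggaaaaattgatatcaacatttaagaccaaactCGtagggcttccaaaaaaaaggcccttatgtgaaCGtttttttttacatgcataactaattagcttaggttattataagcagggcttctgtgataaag
The A promoter held 18 CpGs at 69.0% GC, the H promoter 3 at 55.5% and the M promoter 4 at 34.0%. None of the 3 runs contained a deposited position.

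Positions at the A promoter formed a short regular row. The main start of MITF (ENSG00000187098.18, chromosome 3, 69739456 to 69968336, plus strand) is that of ENST00000352241.9 at 69739464, inside a CpG island of 779 bp. The nearest position upstream lay 343 bp from it, and downstream positions lay 327, 518 and 706 bp away, so that the steps within the row were 191 and 188 bp. Rows of at least 3 neighbours 150 to 220 bp apart within 1000 bp downstream were found at 44 of 11139 island main starts, or 0.395%, and at 2.37% of main starts outside islands. MITF met this limit among the 9 genes, but LHX2 had a longer row further on, at 999, 1192, 1404 and 1601 bp, which the limit of 1000 bp leaves out. The measure was chosen after the MITF row had been seen, so its rarity is a description and not a test, and such a row is not particular to MITF. The 150 bases centred on each of the 3 positions are shown because they carry the row. They lie in the intron after the A exon at chr3:69739716-69739865, chr3:69739907-69740056 and chr3:69740095-69740244, with CpGs in capitals.
MITF A array 1: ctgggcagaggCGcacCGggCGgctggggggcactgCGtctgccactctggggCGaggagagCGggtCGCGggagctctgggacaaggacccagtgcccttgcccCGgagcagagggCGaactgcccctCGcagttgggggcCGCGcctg
MITF A array 2: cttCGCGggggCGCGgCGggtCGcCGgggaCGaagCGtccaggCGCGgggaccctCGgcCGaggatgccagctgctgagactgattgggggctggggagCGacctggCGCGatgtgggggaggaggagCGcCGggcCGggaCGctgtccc
MITF A array 3: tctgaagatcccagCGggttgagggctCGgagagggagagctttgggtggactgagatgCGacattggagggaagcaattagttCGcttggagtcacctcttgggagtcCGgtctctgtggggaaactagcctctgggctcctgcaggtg
The windows around the positions at 327 and 518 bp were within the island and had 74.7% and 76.7% GC with 13 and 20 CpGs. The window around the position at 706 bp, just outside the island, had 58.0% GC and 5 CpGs. Whether a deposited position marks the centre of a nucleosome is not given in the sources used here.

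**Figure D1:**
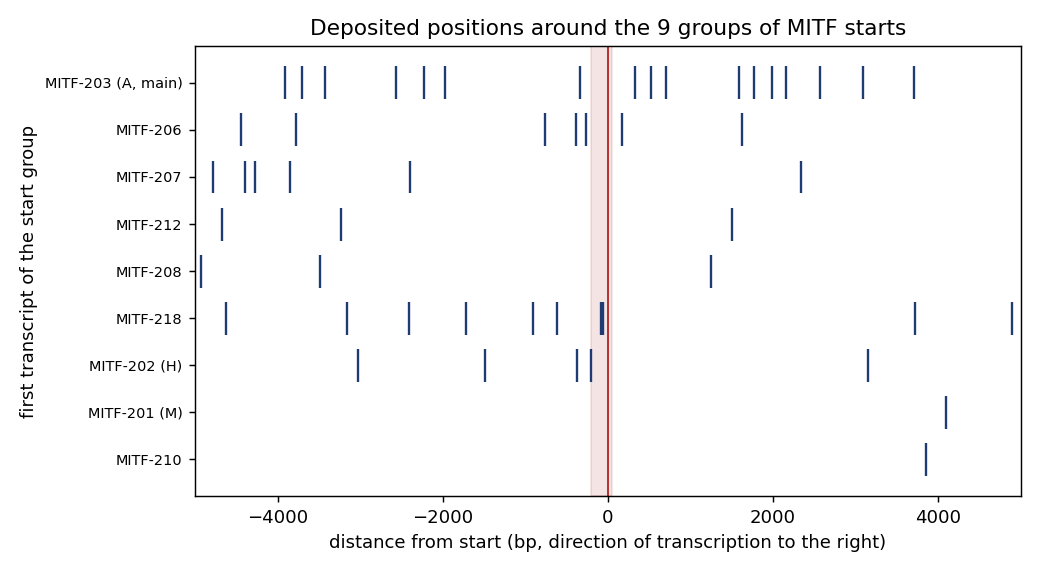
Deposited positions (blue ticks) within 5000 bp of each of the 9 groups of annotated MITF starts, one row per group, with distance in bp along the direction of transcription; the red line is the start and the shaded band the window from 200 bp upstream to 50 bp downstream. The A start has positions on both sides within 343 bp, and the M start has none nearer than 4099 bp.

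The other MITF starts differed widely in their surroundings. The gene has 19 annotated starts, which fall into 9 groups when starts within 100 bp are joined, and 1 group lies in a CpG island. A window from 200 bp upstream to 50 bp downstream held no position at 8 of the 9 groups, against 81.8% of the start groups of all protein-coding genes, so the share of empty windows was near the background. The exception was the start at 69794408, with 2 positions, the nearer 61 bp upstream. The H start group, at 69866224, had its nearest positions 209 bp upstream and 3153 bp downstream. The M start group, at 69936587, had them 6823 bp upstream and 4099 bp downstream. This stretch of 10922 bp was the longest of the 185 between neighbouring positions in MITF and its flanks. In the list, 0.249% of all neighbouring pairs lay at least as far apart. That share counts pairs and not starts, and a long stretch covers more starts than a short one. Over main starts outside islands the 90th percentile of the stretch was 7715 bp. The starts at 69762724, 69763556 and 69763811 shared a stretch of 4732 bp. The start at 69758704 had a position 171 bp downstream, and it was the only MITF group with one from 50 to 250 bp downstream. The starts at 69739464 (A) and 69758704 were thus the closest flanked, with 670 and 432 bp between the positions on either side, and the M start the most distantly.

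Promoter sequence was also searched from 250 bp upstream to 50 bp downstream, on both strands. The M and H starts lie outside islands, so the share among promoters outside islands is given as well. The cyclic AMP response element TGACGTCA was found once in front of the M start, at -147 bp. It was present in 2.69% of all promoters of this length (1.85% outside islands). The LIM homeobox core TAATTA lay at -42 bp from the same start and was present in 3.05% of promoters (5.57% outside islands). No TGACGTCA or TAATTA was found at the A or the H start. TAATTA was not particular to the M start, since it also lay at -19 bp from the MITF start at 69763556 and at -176 bp from that at 69794408. The OTX and CRX core TAATCC, present in 5.9% of promoters (8.87% outside islands), was found at -113 bp from the H start. It also lay at -17 bp from the MITF start at 69936829. The general E-box pattern CANNTG occurred in 63.8% of promoters (55.2% in islands and 74.6% outside). It was not found in the windows of the A, H and M starts, nor in those of the MITF starts at 69758704 and 69762724. It lay at -236 bp from the MITF start at 69763556 and at 28 bp from that at 69763811. The start at 69936829 had it at -76 bp, and that at 69794408 at -156, -150 and -16 bp. The E-box pattern also covers every CATGTG. The TATA motif TATAAA, in 9.73% of promoters (16.8% outside islands), was found at -169 and 27 bp from the M start. The window of the start at 69936829, which overlaps that of the M start, had it at -215 and 28 bp. At the main starts of the other genes, OTX2 had 1 E-box, a CATGTG at -239 bp, PAX6 had 3 E-boxes, RAX 1 and CRX 2. Of the CRX E-boxes 1 was a CATGTG, and those of PAX6 and RAX were not. None of the 6 motifs searched was found at the main starts of MITF, LHX2, SIX3, SIX6 and TFEC. The share of all promoters that lack all 6 was not computed, so nothing is read from this absence.

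CRX was the only gene of the 9 with a position in the window around its main start. Windows without a position were found at 8 of 9 main starts, against 85.8% of all main starts (91.7% in islands and 78.4% outside), so this share was close to the background as well. Over all 61 start groups of the 9 genes, 57 had no position in the window, against 81.8% of the start groups of all genes. PAX6 supplied 31 of the 61, many of them in the same stretch, so the groups are not separate observations. CRX (ENSG00000105392.17, chromosome 19, 47819779 to 47843330, plus strand) starts at 47821937, outside islands, and its position lay 96 bp upstream. The 200 bases before the start, at chr19:47821737-47821936 on the plus strand of hg38, are shown because they hold both this position and 2 matches to the OTX and CRX core TAATCC, which read GGATTA on this strand and are in capitals.
CRX promoter: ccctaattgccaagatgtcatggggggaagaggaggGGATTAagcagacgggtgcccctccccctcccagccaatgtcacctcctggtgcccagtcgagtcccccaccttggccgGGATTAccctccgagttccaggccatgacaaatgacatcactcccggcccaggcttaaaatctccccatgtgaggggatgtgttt
The matches begin at -164 and -85 bp from the start, so the deposited base lay between them, nearer to the second. A CATGTG, found in 8.21% of promoters (12.5% of those outside islands, where CRX starts), began at -19 bp. The next position downstream of the CRX start was 731 bp away, and the stretch over the start was 827 bp.

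None of the 9 genes had a position from 50 to 250 bp downstream of its main start, where 22.2% of all main starts had one (18.0% in islands and 27.4% outside). In the flanks from 1000 to 2000 bp on either side, PAX6 and RAX had no position, as did 30.2% of all main starts (32.5% in islands and 27.4% outside). The counts for 9 genes are too small to tell from these shares. OTX2 and PAX6 had the main start inside the longest stretch of the gene and its flanks, and so did 13.7% of all genes (15.8% with island starts). The main starts of the eye-field genes and of OTX2 lay in longer stretches without a position than those of MITF, CRX and TFEC. The stretch was 9601 bp at OTX2, 6329 bp at PAX6, 4641 bp at RAX, 3569 bp at SIX6, 3335 bp at SIX3 and 2475 bp at LHX2. It was 944 bp at TFEC, 827 bp at CRX and 670 bp at MITF. Over all island main starts the median was 2808 bp (quartiles 1548 and 4687 bp) and over those outside islands 1918 bp. Against the other island starts, PAX6 was above 85.8%, RAX above 74.6%, SIX6 above 62.1%, LHX2 above 43.8% and MITF above 9.32%. Of the genes that start outside islands, OTX2 was above 92.5% of the other starts there, SIX3 above 70.1%, TFEC above 28.4% and CRX above 24.9%. Only the OTX2 stretch exceeded the 90th percentile of island starts, 7390 bp. By definition of the percentile 9.99% of island main starts did so, and 10.7% of the others did. Among starts outside islands, as OTX2 has, the 90th percentile was 7715 bp, which the OTX2 stretch also exceeded. The order of the 9 genes is that of single stretches in 1 list, and no spread over batches could be given for it.

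**Figure D2:**
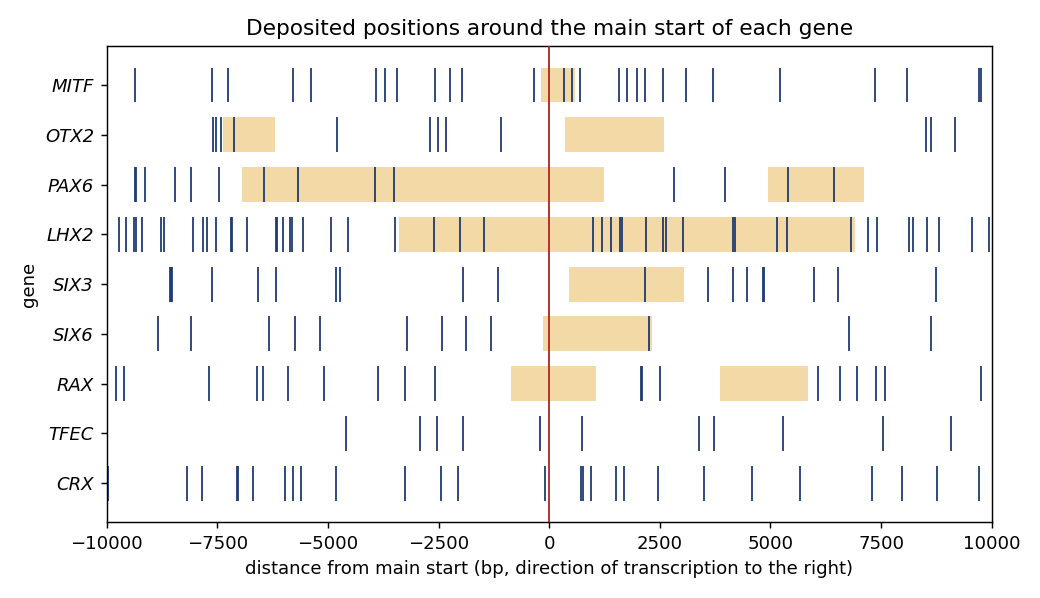
Deposited positions (blue ticks) within 10000 bp of the main start of each gene (red line), with distance in bp along the direction of transcription; pale bars are the CpG islands counted for that gene. The OTX2 start lies in the widest stretch, from 1086 bp upstream to 8515 bp downstream, while LHX2 has the densest row of ticks.

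OTX2 (ENSG00000165588.19, chromosome 14, 56799905 to 56816693, minus strand) has 8 annotated starts in 4 groups, and none of the groups had a position in the window. The main start, ENST00000672264.2 at 56810479, lies outside islands, 357 bp from an island of 2233 bp that held no position where 3.17 were expected from its GC content. Islands of similar length were also empty in 56.2% of cases, so an empty island of this size is common. The second island of OTX2, of 1172 bp, held 1 position. The stretch of 9601 bp covers the larger island, the main start and the start groups at 56805667 and 56810222. The 200 bases before the main start, at chr14:56810480-56810679 on the minus strand, are shown because they lie in the longest of these stretches. CpGs are in capitals.
OTX2 promoter: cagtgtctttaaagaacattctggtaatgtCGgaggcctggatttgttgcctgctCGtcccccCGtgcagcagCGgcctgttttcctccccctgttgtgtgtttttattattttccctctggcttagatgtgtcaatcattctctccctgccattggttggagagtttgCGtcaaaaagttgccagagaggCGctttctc
This run held 6 CpGs at 49.5% GC. The antisense long noncoding gene OTX2-AS1 begins at -2704 bp from the main start, and 2 positions lay in the window around its own start. MNase fragments carry no strand, so positions in the overlap belong to both genes.

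PAX6 (ENSG00000007372.25, chromosome 11, 31784779 to 31817961, minus strand) has 66 annotated starts in 31 groups, 18 of them in islands. Of the 31 groups, 29 had no position in the window, against 81.8% of all start groups, and most of the 31 lie in only 2 stretches. The main start, ENST00000640368.2 at 31811322, lies in an island of 8193 bp with 531 CpGs. That island held 4 positions, or 0.488 per kb (95% exact Poisson interval 0.133 to 1.25), where its GC content predicted 11.2, and islands of similar length held a median of 4. All 4 lay in its upstream part, since the 6329 bp over the main start were free of positions and covered 11 start groups. The smaller islands of PAX6, of 2178 and 1356 bp, held 2 positions each. A further 9 groups shared a stretch of 5148 bp. The most upstream group, at 31817961, had a position 205 bp downstream. The noncoding antisense gene PAUPAR begins at -985 bp from the main start, inside the same stretch, and had no position in the window around its start.

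Of the sine oculis family, SIX6 (ENSG00000184302.7, chromosome 14, 60509146 to 60512850) starts inside an island of 2448 bp and SIX3 (ENSG00000138083.5, chromosome 2, 44941702 to 44946071) 459 bp before one of 2585 bp. Each island held 1 position, against 3.48 and 3.32 expected from GC content, and 53.6% and 52.1% of islands of similar length held none. The SIX6 gene body held 1 position and the SIX3 body 3. The nearest positions were 1303 bp upstream and 2266 bp downstream of the SIX6 start, and 1164 and 2171 bp from that of SIX3. The antisense gene SIX3-AS1 starts 214 bp inside SIX3, and no position lay in the window around its start. The 200 bases before the SIX6 start, at chr14:60508946-60509145 on the plus strand, are shown as an island promoter of the eye field without a position, with CpGs in capitals.
SIX6 promoter: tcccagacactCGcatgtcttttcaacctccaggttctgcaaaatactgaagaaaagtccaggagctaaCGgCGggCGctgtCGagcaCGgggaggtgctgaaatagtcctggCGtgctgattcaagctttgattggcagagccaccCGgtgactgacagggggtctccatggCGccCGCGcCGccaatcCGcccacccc
This run held 13 CpGs at 59.5% GC. RAX (ENSG00000134438.10, chromosome 18, 59267035 to 59274086, minus strand) had 2 islands of 1994 and 1916 bp, and neither held a position, where 2.43 and 1.82 were expected. Of all islands, 64.6% held none, and so did 3 of the 11 islands of these genes. The 3 start groups of RAX all lay in 1 stretch of 4641 bp. The bodies of SIX6, SIX3 and RAX, of 3705, 4370 and 7052 bp, held 1, 3 and 4 positions. The list averages 0.904 per kb, so bodies this short are bound to hold few.

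LHX2 (ENSG00000106689.11, chromosome 9, 124001670 to 124033301, plus strand) had the highest density of positions of the 9 genes. It lies on the chromosome with the highest density in the list, 1.26 per kb, where the other chromosomes had 0.481 to 1.23 with a median of 0.880. Its island of 10290 bp, which holds the main start at 124011768, contained 17 positions, or 1.65 per kb (95% exact Poisson interval 0.962 to 2.65). Islands of similar length held a median of 5, and LHX2 was above 99.1% of 55 of them. From GC content 12.9 positions were expected in it, and the rest of the surrounding 1 Mb also held 1.44 times its own GC expectation. The part of the chromosome in the LHX2 values was not tested. The start itself lay in a gap of 2475 bp, and positions followed from 999 bp downstream. Neighbours in and around LHX2 lay a median of 220 bp apart, and 44 of 182 pairs, 24.2%, were 150 to 220 bp apart, against 549 bp and 14.2% over the list. Pairs under 60 bp apart, too close for separate nucleosomes, made up 15.4% there and 9.0% in the list. LHX2 with its flanks held 2.55 positions per kb against 0.904 over the list, and a higher density by itself brings neighbours closer. Whether the spacing differs beyond the density was not tested.

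**Figure D3:**
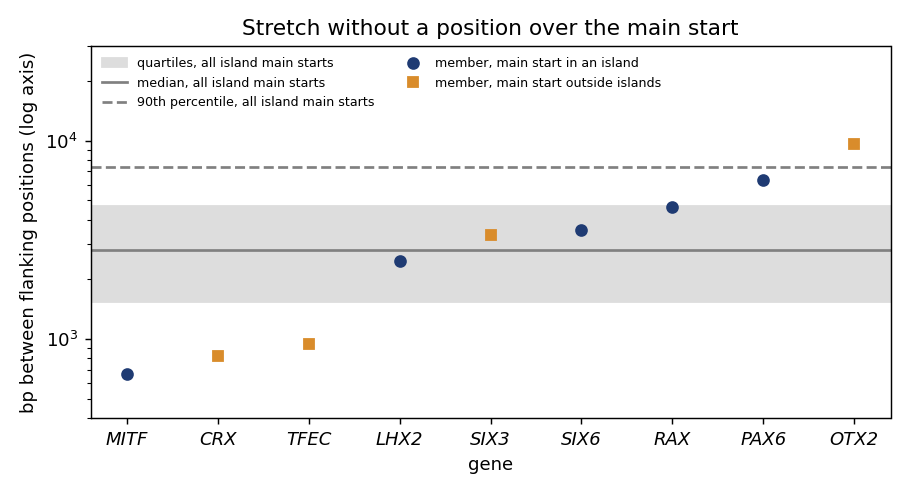
Distance in bp between the positions on either side of each main start (log axis), in increasing order, with circles for main starts in islands and squares for those outside; the grey band and lines give the quartiles, median and 90th percentile over all island main starts. MITF, CRX and TFEC lie below the lower quartile of island starts, and OTX2 alone lies above the 90th percentile line. CRX and TFEC start outside islands, where the lower quartile is 829 bp, with CRX at 827 bp and TFEC at 944 bp.

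Over all 11 islands of the 9 genes, 30 positions fell in 35.1 kb, or 0.854 per kb (95% exact Poisson interval 0.576 to 1.22), against 0.459 over all 17123 islands. LHX2 supplied 17 of the 30, and without it the density was 0.523 per kb (0.279 to 0.894). The value of all islands lay inside that interval. Within 200 bp of the island edges the genes had 9 positions in 8.8 kb, or 1.02 per kb (0.468 to 1.94), and all islands 0.647. Further inside, they had 0.846 per kb (0.552 to 1.24) against 0.410, and without LHX2 0.480 (0.230 to 0.882). The shores, from the border out to 2000 bp, had 1.06 per kb (0.764 to 1.43) against 0.973. The island of MITF held 2 positions in 779 bp, both of the row at the A start, or 2.57 per kb with a wide interval (0.311 to 9.27) that includes the value of all islands. Of islands of similar length, 68.6% held none, and 0.644 was expected from GC content.

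In the gene bodies, exons of all transcripts held 38 positions in 57.7 kb and introns 396 in 516 kb, or 0.659 and 0.767 per kb. The ratio was 0.859 (95% exact interval 0.599 to 1.20), and over all protein-coding genes it was 1.10. Without LHX2, whose introns held 80 positions and whose exons held 1, the ratio was 1.03 (0.714 to 1.46), so no difference between exons and introns was detectable at these counts. PAX6 had 12 exonic positions, of which 1 was coding, in exon 14 of the main transcript. CRX had 8, of which 5 lay in the noncoding part of exon 4 and 1 in its coding part. The coding positions of TFEC lay in exons 2 and 8, with 2 positions in exon 2, and the 1 coding position of MITF lay in exon 2 at 69879337, which 13 transcripts share. OTX2 had 2 coding positions, both in exon 5. LHX2, SIX3, SIX6 and RAX had no coding position.

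Each gene with 20 kb on either side was then set against the rest of the surrounding 1 Mb. For MITF the region held 186 positions, or 0.692 per kb, and the surroundings 0.955, a ratio of 0.725 (95% exact interval 0.613 to 0.853). SIX3 stood at 0.879 against 1.27 per kb, a ratio of 0.692 (0.490 to 0.951). LHX2 stood at 2.55 against 1.72, a ratio of 1.49 (1.27 to 1.73). These 3 intervals exclude 1, with 2 below it and 1 above, where 30.4% of all genes had an interval wholly below 1 (36.2% with island starts and 23.1% with others) and 19.6% wholly above (1882 of 11071 genes with island starts, as LHX2 has, and 22.9% with others). With the GC expectation, the ratio of LHX2 was 1.25 and that of SIX3 0.489. Exact intervals cover counting error only and treat positions as independent, which overlapping calls are not.

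**Figure D4:**
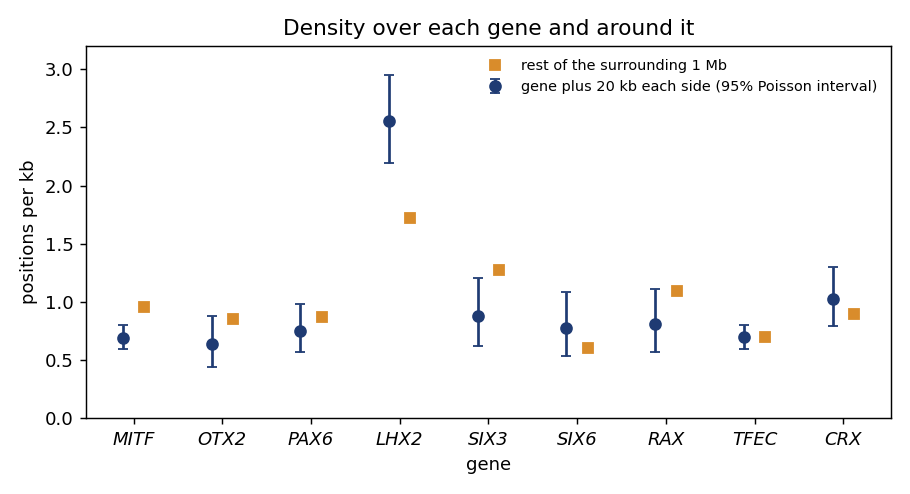
Positions per kb over each gene with 20 kb on either side (blue circles, bars are 95% exact Poisson intervals) and over the rest of the surrounding 1 Mb (orange squares). LHX2 is highest in both, at 2.55 and 1.72 per kb.

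The other 6 ratios had intervals that include 1. They were 0.742 for OTX2, 0.739 for RAX, 0.865 for PAX6, 0.990 for TFEC, 1.14 for CRX and 1.28 for SIX6. In all, 6 of the 9 genes lay below their surroundings, against 57.1% of all genes (63.0% with island starts and 49.6% with others). For SIX6 the direction rested on the flanks: the gene body alone gave 0.439, from 1 position, and both the GC expectation and surroundings of 2 Mb gave 0.994. TFEC turned to 1.20 with the GC expectation. Among other island genes of similar span, within a factor of 1.5, LHX2 was above 93.8% of 2573 genes, SIX6 above 79.1% of 788, CRX above 76.3% of 2400 and TFEC above 63.5% of 1050. PAX6 was above 49.6% of 2598, OTX2 above 30.7% of 2103, MITF above 30.5% of 1028, RAX above 28.4% of 1254 and SIX3 above 23.8% of 904. For the genes that start outside islands, comparison with other such genes placed CRX above 63.2%, TFEC above 52.7%, OTX2 above 21.4% and SIX3 above 20.4%. The ratio of LHX2 was thus high for an island gene, and the other 8 lay between 23.8% and 79.1% of the island genes.

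MITF and TFEC allow a comparison of relatives of nearly equal span, 228881 and 224749 bp. TFEC (ENSG00000105967.16, chromosome 7, 115935148 to 116159896, minus strand) has no CpG island by the criteria used, and its main start at 116030763 had positions 209 bp upstream and 735 bp downstream. With flanks, MITF held 186 positions and TFEC 184, or 0.692 and 0.695 per kb, a ratio of 0.995 (95% exact interval 0.807 to 1.23). Relative to the GC expectation they were not alike, with 0.892 times the expected positions in MITF and 1.38 times in TFEC. Their surroundings differed, with 1.36 times (1.21 to 1.53) the density around MITF. In windows of 10 kb along the gene, MITF had 1 to 15 positions with a median of 6, and TFEC 2 to 11 with a median of 6.5. The highest MITF window was that at the 5′ end, which contains the A start. The lowest count, 1, was that of the window with the M start and of the window from 160 kb, which holds no annotated start. Measured from the start that stands for each group, none of the 4 TFEC start groups had a position in the window, and the upstream group at 116159896 lay between positions 334 and 380 bp away. The 200 bases before the most upstream start of the main TFEC group, at chr7:116030814-116031013 on the minus strand, are shown for contrast with the MITF A promoter, with the CpG in capitals.
TFEC promoter: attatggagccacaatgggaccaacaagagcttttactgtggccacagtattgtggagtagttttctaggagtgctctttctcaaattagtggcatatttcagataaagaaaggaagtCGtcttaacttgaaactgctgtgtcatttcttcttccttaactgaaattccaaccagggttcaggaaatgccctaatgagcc
It held 1 CpG at 41.0% GC and 1 position, the one 209 bp upstream of the main start, which the window from that start does not reach.

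**Figure D5:**
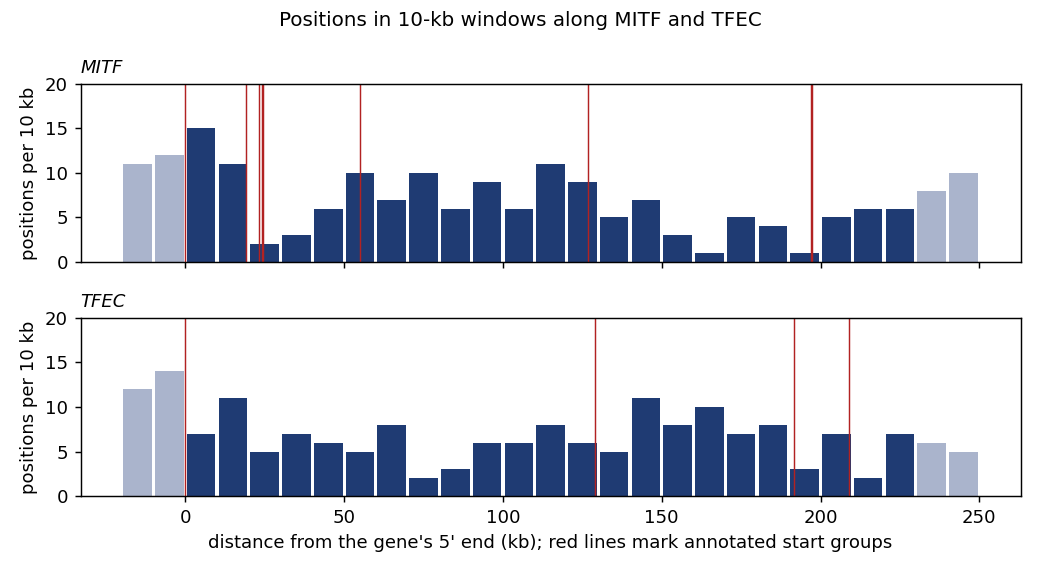
Positions in windows of 10 kb from the 5′ end of MITF (top) and TFEC (bottom); dark bars begin inside the gene, pale bars in its flanks, and red lines mark groups of annotated starts. The highest MITF bar, 15, is at the 5′ end, and TFEC bars inside the gene do not exceed 11.

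A wider list of 36 factors of eye and pigment cell development was described in the same way. Of these, 22 had a main start in an island. No position lay in the window around the main start of 32, against 85.8% of all main starts (91.7% in islands and 78.4% outside). From 50 to 250 bp downstream 4 had one, against 22.2% (18.0% in islands and 27.4% outside). The median stretch over the main start was 3362 bp, against 3335 bp for the 9 genes. For all protein-coding genes it was 2425 bp (2808 bp with island starts and 1918 bp with others). The median ratio to the surrounding 1 Mb was 1.15, against 0.865 for the 9 genes and 0.934 for all genes (0.884 with island starts and 1.00 with others). Within the list it ran from 1.01 for 6 factors of the MITF family and pigment cells to 1.42 for 4 of photoreceptors and retinal neurons. Of the 36 ratios 14 were below 1, against 57.1% of all genes (63.0% with island starts and 49.6% with others). Among the high ratios was that of ATOH7, which is needed for retinal ganglion cells, at 1.73 (54 positions). The lowest were those of MEIS2, at 0.304 with 4 positions in a sparse part of chromosome 15, and TFE3, a further relative of MITF on chromosome X, at 0.519 with 19. TFEB, the remaining member of the MITF family, stood at 1.24 with 152 positions. The MITF family thus ranged from 0.519 to 1.24.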

How the data were processed

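MNase-seq was done on 2 batches of interphase ARPE-19 cells. Per the labels' protocols, fragments of about 150 bp were recovered from a gel, and the submitters' processing notes name Bowtie2 and hg38. The authors deposited 1 list of positions without a score or other unit, each an interval of 1 bp. The caller, its thresholds, the depth and any pooling of batches are not given in the sources used here. Repeated rows were removed, and all 9 members and gene lists were chosen with earlier results of these data known.

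Main starts are those of MANE Select transcripts, or else of the canonical ones (GENCODE 44). CpG islands were segments of a running score (+17 per CpG, -1 otherwise) longer than 500 bp, of 55% GC or more, whose CpG count exceeded 0.65 of that predicted from base composition. Densities are positions per kb of determined sequence. The GC expectation gives each base the density of its GC bin (2% wide, over 200 bp). Without replicates no test was made, and 95% intervals cover counting error only. All members were named by rule; from the wider list the rule names the 2 highest and 2 lowest ratios, of which 1 is not reported here, and TFEB was added after its value was seen. Alternatives were other start windows, merging of positions closer than 100 bp, the gene body alone, surroundings of 2 Mb, the GC expectation, looser islands, exons of the main transcript and a wider match on span. The names A, H and M were given to MITF start groups from the first codons of their transcripts. Python 3.11.15, numpy 2.4.6, scipy 1.17.1, pandas 2.3.3, numba 0.67.0 and matplotlib 3.10.9 were used.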

Additional observations from a re-analysis of the deposited data

How the results depend on the processing

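Over 32 results, 73 alternative values were computed; 66 stayed within the counting interval of the reported value, within 1.5 times a reported count or, for percentiles, within 5 points, and 7 did not. Counting every distinct MITF start instead of groups gave 18 of 19 without a position. Leaving out LHX2, an alternative chosen after seeing the data, gave 0.523 island positions per kb. The remaining 5 were ratios of single genes to their surroundings: the gene body alone gave 0.623 for PAX6 and 0.439 for SIX6, and the GC expectation gave 1.25 for LHX2, 0.489 for SIX3 and 1.20 for TFEC. The cause was not tested. No paired analysis was possible because the list does not distinguish the batches, and for the same reason no batch could be left out. The list holds less than 1 position per kb, so a stretch without a position is not shown to lack nucleosomes.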
